A study of Mus musculus with 24 samples.

Results

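The 10 genes described here encode 4 subunits of the NADPH oxidases (Cybb, Cyba, Ncf1 and Nox4) and 6 enzymes that remove reactive oxygen species or break down haem (Sod1, Sod2, Sod3, Cat, Gpx1 and Hmox1). They were taken by gene name from the 54532 genes of the expression table, and each name matched 1 gene. RNA of a brain hemisphere was sequenced from 24 male wild-type C57Bl6 mice, 8 to 12 weeks old, with 6 mice in each of 4 groups. The vehicle group had 0.9% saline from an osmotic minipump for 2 weeks and an injection of saline, and the angiotensin II group had angiotensin II at 0.7 mg/kg/day from the pump and the same injection. The vehicle + amnion epithelial cells and angiotensin II + amnion epithelial cells groups had the corresponding pump and 1000000 amnion epithelial cells in the tail vein. These cells line the innermost membrane around the foetus and were of human origin. Every group therefore carried a pump and had an injection. Angiotensin II, a peptide that constricts vessels, was given to raise blood pressure.

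NADPH oxidases pass electrons from NADPH across a membrane to oxygen and so make reactive oxygen species. Cybb encodes the catalytic chain of the phagocyte oxidase (NOX2), Cyba the membrane partner p22phox, and Ncf1 the cytosolic organiser p47phox, whereas Nox4 encodes a catalytic chain that needs p22phox but no cytosolic organiser. Superoxide dismutases turn superoxide into hydrogen peroxide, in the cytosol (Sod1), the mitochondria (Sod2) or outside the cell (Sod3). Catalase (Cat) and glutathione peroxidase (Gpx1) then remove the peroxide, and Hmox1, the inducible haem oxygenase, opens the haem ring. Angiotensin II is a known activator of NADPH oxidases in vessels and brain. The comparisons below ask only about the RNA of these genes. RNA levels do not show whether the oxidases were active, and activity was not measured.

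Markers of the brain's main cell types were present. All 6 neuron, 5 astrocyte, 5 oligodendrocyte and 12 microglia markers had a mean above 1 FPKM, and 0 of them were at 0 over the 24 mice. FPKM is the number of fragments on a gene, scaled to the length of the gene and to the depth of the library. The libraries held 16536449 to 25308700 fragments. The summed FPKM of all genes was 277115.9 to 298300.6 in 18 libraries and 338334.5 to 348596.7 in the other 6. Replicates 5 and 6 of vehicle and of angiotensin II + amnion epithelial cells belonged to the 6, with replicate 5 of angiotensin II and replicate 6 of vehicle + amnion epithelial cells. The labels do not name this set of libraries, which was found from the data. Group differences are given with the groups alone in the fit, and also with the set as a term or in the 18 libraries where these change what is said.

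The 10 genes lie on 8 chromosomes of the mouse build GRCm38. Cybb is at chromosome X (9435252 to 9487771), Cyba at chromosome 8 (122424776 to 122432930), Ncf1 at chromosome 5 (134220053 to 134229625) and Nox4 at chromosome 7 (87246096 to 87398710). Sod1 is at chromosome 16 (90220754 to 90226329), Sod2 at chromosome 17 (13006846 to 13040063) and Sod3 at chromosome 5 (52363791 to 52371418). Cat is at chromosome 2 (103453849 to 103485160), Gpx1 at chromosome 9 (108338903 to 108340343) and Hmox1 at chromosome 8 (75093621 to 75100589). On the opposite strand, Sod1 overlaps the end of Scaf4, which had a mean of 6.02 FPKM, and Ncf1 overlaps Gtf2ird2, which had a mean of 3.59 FPKM. Use of the strand in counting is not given in the sources used here, so the shared stretches of Sod1 and Ncf1 are uncertain.

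The members differed in base composition, which is shown because the differences between library sets described below went with it. The 90 bases in the middle of the coding sequence are printed for Sod3, Cyba, Sod2 and Cat. Among members with a mean of at least 1 FPKM, the library-set difference was highest in Sod3 and Cyba and lowest in Sod2 and Cat. The difference of Cat (-0.091 on the log2 scale) was close to that of Ncf1 (-0.088). The stretches were read from the GENCODE M21 transcripts of GRCm38, with G and C in capitals.
Sod3: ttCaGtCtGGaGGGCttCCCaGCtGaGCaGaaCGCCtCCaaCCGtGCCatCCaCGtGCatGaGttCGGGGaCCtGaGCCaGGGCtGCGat
Cyba: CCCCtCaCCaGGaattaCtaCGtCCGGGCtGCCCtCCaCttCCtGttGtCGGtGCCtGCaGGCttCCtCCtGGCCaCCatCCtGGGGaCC
Sod2: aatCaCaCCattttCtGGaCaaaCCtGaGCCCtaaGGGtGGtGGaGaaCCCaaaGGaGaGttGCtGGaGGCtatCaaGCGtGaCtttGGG
Cat: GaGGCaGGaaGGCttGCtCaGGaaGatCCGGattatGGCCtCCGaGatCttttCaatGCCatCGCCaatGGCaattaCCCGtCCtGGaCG
G and C made up 56 of the 90 bases in Sod3 and 58 in Cyba, against 46 in Sod2 and 49 in Cat. Over the coding sequences, the G + C share was 63.3% in Sod3, 59.9% in Cyba, 54.1% in Sod2 and 51.8% in Cat. The principal transcripts were 59.3% G + C in Cyba and 57.2% in Gpx1, 52.7% to 53.3% in Hmox1, Sod1, Ncf1 and Sod3, 48.7% in Cat, and 40.4% to 42.4% in Cybb, Sod2 and Nox4.

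Levels spanned more than 3 orders of magnitude. Gpx1 had the highest deposited value, with a mean of 61.3 FPKM over the 24 mice (range 47.5 to 88.6), followed by Sod1 with 52.8 FPKM (range 42.4 to 76.9). Gpx1 was above Sod1 in 24 of 24 mice. Sod2 (mean 18.7 FPKM, range 15.0 to 20.3) was above Cat (mean 15.2 FPKM, range 13.2 to 16.8) in 24 of 24 mice. The oxidase subunits were lower. Cyba, the partner of several oxidases, had a mean of 6.97 FPKM (range 4.39 to 12.2) and Ncf1 a mean of 1.52 FPKM (range 1.13 to 2.19). Cyba and Sod3 (mean 5.92 FPKM) were neighbours whose ranges overlapped, and Cyba was the higher in 20 of 24 mice. Hmox1 had a mean of 3.37 FPKM (range 2.47 to 4.56).

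The catalytic chains were at the limit of this depth. Cybb had a mean of 0.158 FPKM, which rested on 4 to 45 fragments a mouse. Nox4 had a mean of 0.0217 FPKM, which rested on 0 to 8 fragments a mouse, and vehicle replicate 5 had 0. Changes of Nox4 were therefore poorly resolved at this depth, and the size of change that could have been seen was not computed. In hemispheres, fewer cells of a type and less RNA per cell cannot be told apart.

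**Figure D1:**
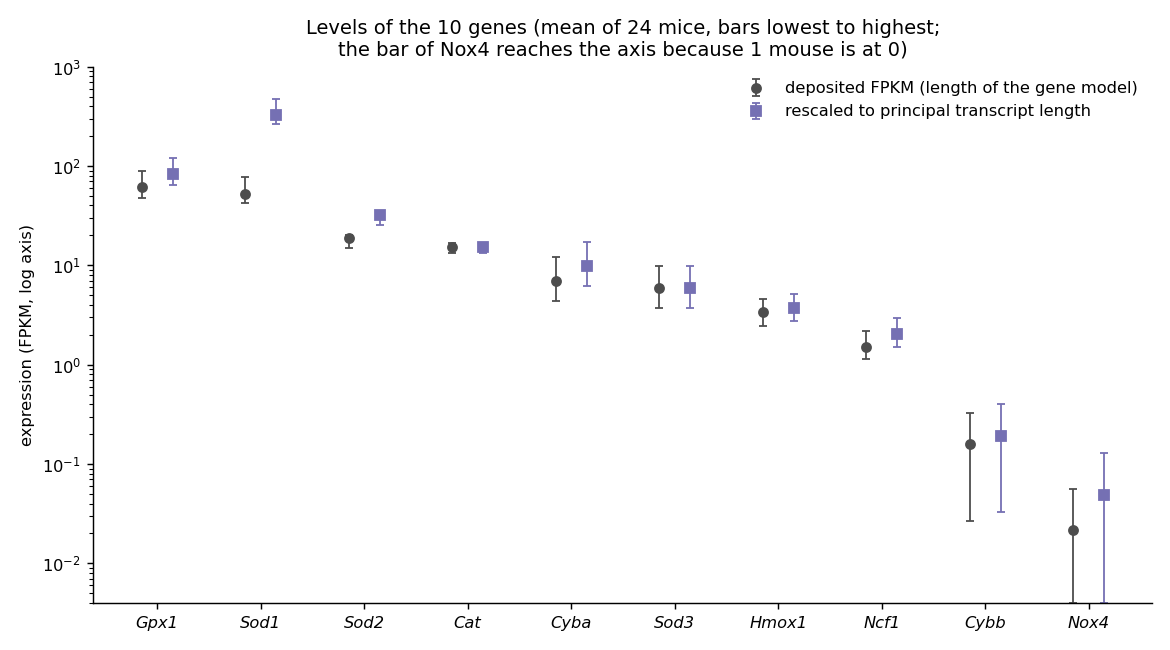
Expression of the 10 genes on a log axis of FPKM, as the mean of 24 mice with bars from the lowest to the highest mouse, for the deposited values (circles) and after rescaling to the length of the principal transcript (squares). Gpx1 leads on the first scale and Sod1 on the second, with 327 against 82.3.

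The order of the top genes depended on the length by which fragments were divided. The table gives Sod1 a length of 3970 bases, whereas its principal GENCODE M21 transcript has 641 bases, which is 6.19 times shorter. Rescaled to principal transcript length, Sod1 had a mean of 327 FPKM and Gpx1 a mean of 82.3 FPKM, and Sod1 was the higher in 24 of 24 mice. The same rescaling changed Cat and Sod3 by a factor of 1, and the order of the other 8 genes stayed as in the deposited FPKM. Comparisons of 1 gene between mice do not depend on this length.

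Among the 4 groups, no member was separated from any other group. In the vehicle group, Gpx1 ran from 48.4 to 84.7 FPKM (median 53.2), and in the angiotensin II group from 52.1 to 79.8 FPKM (median 54.8). It ran from 50.1 to 85.1 FPKM (median 54.0) in vehicle + amnion epithelial cells and from 47.5 to 88.6 FPKM (median 55.4) in angiotensin II + amnion epithelial cells. The groups overlapped almost wholly, and the mice above 79 FPKM were the 6 libraries of high total FPKM.

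Sod1 ran from 42.9 to 76.9 FPKM (median 46.7) with vehicle and from 45.2 to 71.0 FPKM (median 47.6) with angiotensin II. With amnion epithelial cells it ran from 42.4 to 73.7 FPKM (median 46.0) in the vehicle mice and from 44.4 to 74.1 FPKM (median 47.8) in the angiotensin II mice. The medians of the 4 groups lay within 2 FPKM of each other. Sod2, the mitochondrial dismutase, went the other way, with the 6 libraries of high total FPKM lowest. Its medians were 19.8, 19.5, 19.7 and 19.1 FPKM in vehicle, angiotensin II, vehicle + amnion epithelial cells and angiotensin II + amnion epithelial cells. Cat had the narrowest spread, with a coefficient of variation of 5.42% over the 24 mice. Its group means were 15.1 ± 1.26 (SD, n = 6), 15.3 ± 0.574, 14.9 ± 0.409 and 15.4 ± 0.947 FPKM in the same order.

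Cyba ran from 4.65 to 12.2 FPKM (median 6.49) with vehicle and from 5.33 to 8.36 FPKM (median 6.32) with angiotensin II. The corresponding values with amnion epithelial cells were 4.39 to 11.1 FPKM (median 5.77) and 4.67 to 10.3 FPKM (median 6.74). Sod3, the extracellular dismutase, had group means of 6.39 ± 2.45 (SD, n = 6) with vehicle, 5.75 ± 1.18 with angiotensin II, 5.62 ± 1.93 with amnion epithelial cells and 5.92 ± 1.75 FPKM with both. For both genes, the mice above 7.2 FPKM were again the 6 libraries of high total FPKM.

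Hmox1 had a mean of 3.62 ± 0.718 FPKM (SD, n = 6) with vehicle and 3.21 ± 0.406 FPKM with angiotensin II, and 1 of the 6 angiotensin II mice lay above the vehicle mean. It had a mean of 3.15 ± 0.509 FPKM with vehicle + amnion epithelial cells and 3.50 ± 0.590 FPKM with angiotensin II + amnion epithelial cells. Vehicle held both the second lowest mouse of the 24 (2.61 FPKM) and the second highest (4.45 FPKM). Ncf1 ran from 1.28 to 1.60 FPKM (median 1.43) with vehicle, from 1.30 to 1.69 FPKM (median 1.46) with angiotensin II and from 1.13 to 1.74 FPKM (median 1.38) with vehicle + amnion epithelial cells. With angiotensin II + amnion epithelial cells it ran from 1.35 to 2.19 FPKM (median 1.60), and the 2 highest mice of the 24, with 1.93 and 2.19 FPKM, were in that group. Cybb had a mean of 0.150 ± 0.0806 FPKM (SD, n = 6) with vehicle, 0.190 ± 0.0749 FPKM with angiotensin II, 0.140 ± 0.0688 FPKM with amnion epithelial cells and 0.150 ± 0.0422 FPKM with both.

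**Figure D2:**
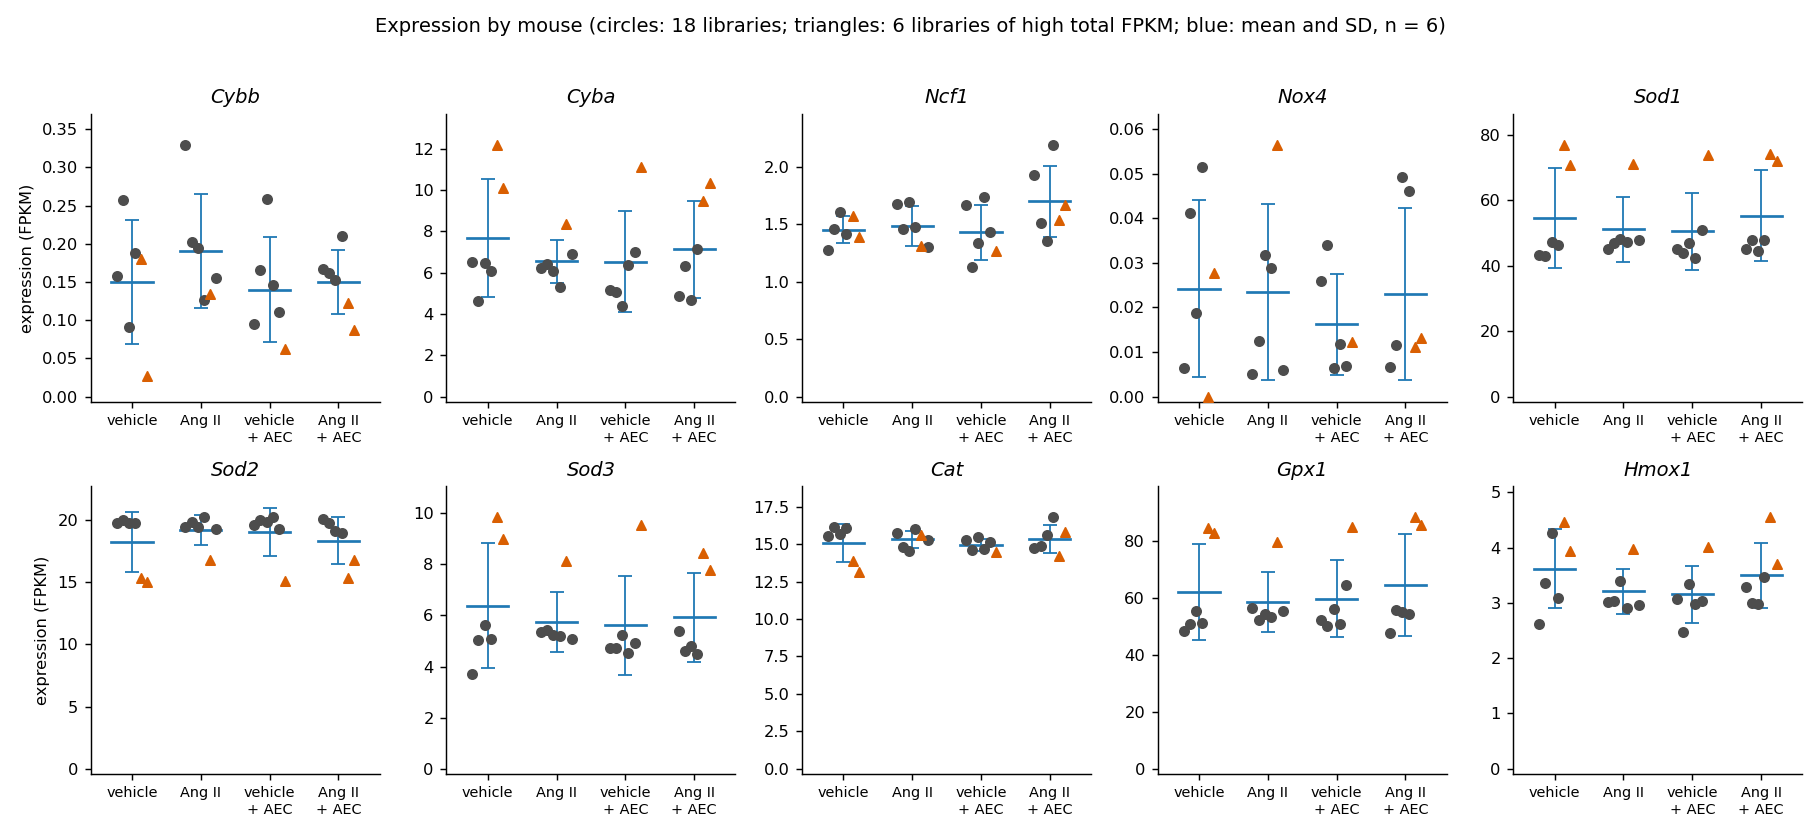
Expression (FPKM) of each of the 10 genes in each of the 24 mice, by group, with blue lines for the mean and SD of 6 mice. Triangles mark the 6 libraries of high total FPKM, which stand above the 18 others (circles) in Cyba, Sod1, Sod3 and Gpx1 and below them in Sod2, while the 4 groups overlap in every panel.

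Group differences were tested with limma on log2(FPKM + 0.1). The p-values were adjusted by Benjamini and Hochberg's method for all 27286 genes that had fragments in 6 or more mice. All 10 members were among these. Differences are on that log2 scale, and fold intervals are taken back from it, so they are folds of FPKM + 0.1. Both understate changes of low genes such as Cybb and Nox4. A gene is called at an adjusted p under 0.05.

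The first comparison asked whether angiotensin II changed the RNA of these genes. In angiotensin II against vehicle, limma called 0 of the 10 members, and 0 had an unadjusted p under 0.05, against 2.21% of all genes tested (0% at the adjusted threshold). The differences ran from -0.16 (Cyba) to 0.25 (Cybb) on the log2 scale, with 4 members higher and 6 lower. The lowest unadjusted p was that of Hmox1 (log2 difference -0.15, SE 0.131, adjusted p = 0.994 in limma). With the library set as a term, 7 were higher and 3 lower, and Cyba was at -0.03. The 95% intervals of the 10 members, with the groups alone, lay between 0.637-fold (Cyba) and 1.66-fold (Cybb) of FPKM + 0.1. The interval was narrowest for Cat, at -0.08 to 0.14 on the log2 scale.

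The second comparison asked whether amnion epithelial cells changed them in mice given angiotensin II. Between angiotensin II mice with and without these cells, limma called 0 of 10 members, and 0 had an unadjusted p under 0.05, against 2.54% of all genes tested. Here 7 members were higher and 3 lower, from -0.20 (Cybb) to 0.17 (Ncf1) on the log2 scale. With the library set as a term, 5 were higher and 5 lower, and in the 18 libraries 4 were higher and 6 lower. Cyba (0.07 to -0.06), Sod1 (0.10 to -0.02) and Sod3 (0.02 to -0.12) turned from higher to lower with the term. In the groups-only fit, Ncf1 had the lowest unadjusted p (SE 0.119, adjusted p = 1 in limma). The 95% intervals of the members lay between 0.627-fold and 1.48-fold.

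Amnion epithelial cells alone were compared with vehicle. In this comparison, too, limma called 0 of 10 members, and 0 had an unadjusted p under 0.05, against 2.41% of all genes tested. Only Sod2 was higher, by 0.06 on the log2 scale, and the other 9 were lower, down to -0.22 (Cyba). Vehicle holds 2 of the 6 libraries of high total FPKM and vehicle + amnion epithelial cells 1. With the library set as a term, 3 members were higher and 7 lower, Cyba was at -0.09, and Sod1 (-0.10 to 0.01) and Gpx1 (-0.04 to 0.07) turned from lower to higher. In the 18 libraries, 4 were higher and 6 lower. None of these differences passed the test, and the 95% intervals lay between 0.611-fold and 1.36-fold. Both comparisons with vehicle alone, and both with angiotensin II alone, share those 6 mice.

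Angiotensin II was also compared within the mice given amnion epithelial cells. There limma called 0 of 10 members, and 0 had an unadjusted p under 0.05, against 2.66% of all genes tested. Ncf1 had the lowest unadjusted p of any member in the 4 pairs of groups. Its log2 difference was 0.23 (SE 0.119, 95% interval -0.01 to 0.48), with an adjusted p = 1 in limma. The exact two-sided permutation test of 6 against 6 mice gave p = 0.110, and 5 of the 6 angiotensin II + amnion epithelial cells mice lay above the mean of the vehicle + amnion epithelial cells mice. With the library set as a term in the fit, the difference was 0.25 (95% interval 0.01 to 0.48, adjusted p = 0.9997 in limma), and its unadjusted p was then under 0.05. In the 18 libraries alone it was 0.24 (95% interval -0.06 to 0.53).

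Ncf1 is also expressed by neutrophils, and 7 of 10 neutrophil markers were higher in the same comparison at an unadjusted p under 0.05, with 0 called. They included Camp (log2 difference 1.55), Ngp (1.28), Mpo (0.90) and S100a8 (0.87), all granule or cytosolic proteins of neutrophils. The summed level of the 10 markers was 7.28 to 15.6 FPKM (median 10.7) with vehicle + amnion epithelial cells and 10.03 to 50.1 FPKM (median 20.2) with angiotensin II + amnion epithelial cells, so that the groups overlapped. It was 5.48 to 14.1 FPKM with vehicle and 6.81 to 25.7 FPKM with angiotensin II, where S100a8 (0.78), S100a9 (0.98) and Retnlg (1.14) were higher than with vehicle at an unadjusted p under 0.05. In angiotensin II against vehicle, the median log2 difference of the 10 markers was 0.58, and Ncf1 was at 0.03 (SE 0.119). Between angiotensin II mice with and without the cells, the median was also 0.58, and Ncf1 was at 0.17 (SE 0.119). In that comparison 2 markers, Camp (1.57) and Elane (1.07), were higher at an unadjusted p under 0.05, and 0 were lower. Within the mice given amnion epithelial cells, the median was 0.94. There Cyba was at 0.13 (SE 0.236) and Cybb, also of the phagocyte oxidase, at 0.09 (SE 0.229). With the library set as a term, Cyba was at 0.0001 and Cybb at 0.17. No neutrophil marker was at 0 over a whole group, and the part of neutrophils in the values of Ncf1, Cyba and Cybb was not tested. Over all cell type lists, 81 markers were tested, and 0 were called in any of the 5 comparisons. Microglia markers, whose cells carry the phagocyte oxidase, had 0 of 12 with an unadjusted p under 0.05 in each comparison.

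The interaction asked whether the difference made by angiotensin II differed with and without amnion epithelial cells. limma called 0 of 10 members, and 0 had an unadjusted p under 0.05, against 2.54% of all genes tested. Hmox1 had the lowest unadjusted p (log2 difference of differences 0.30, SE 0.186, adjusted p = 0.931 in limma). Its value was 0.17 with the library set as a term and 0.19 in the 18 libraries, and the lowest unadjusted p was then that of Ncf1 and of Cat, respectively. Its group means fell in the order vehicle, angiotensin II + amnion epithelial cells, angiotensin II and vehicle + amnion epithelial cells. The widest interval of a member, that of Cyba, ran to 1.98-fold. Over the 4 pairs of groups, the 40 exact two-sided permutation tests gave 0 values under 0.05, with a lowest p of 0.110, where 6 against 6 mice can reach 0.00216. In 0 of the 40 were the groups free of overlap, and overlap was not counted over all genes.

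**Figure D3:**
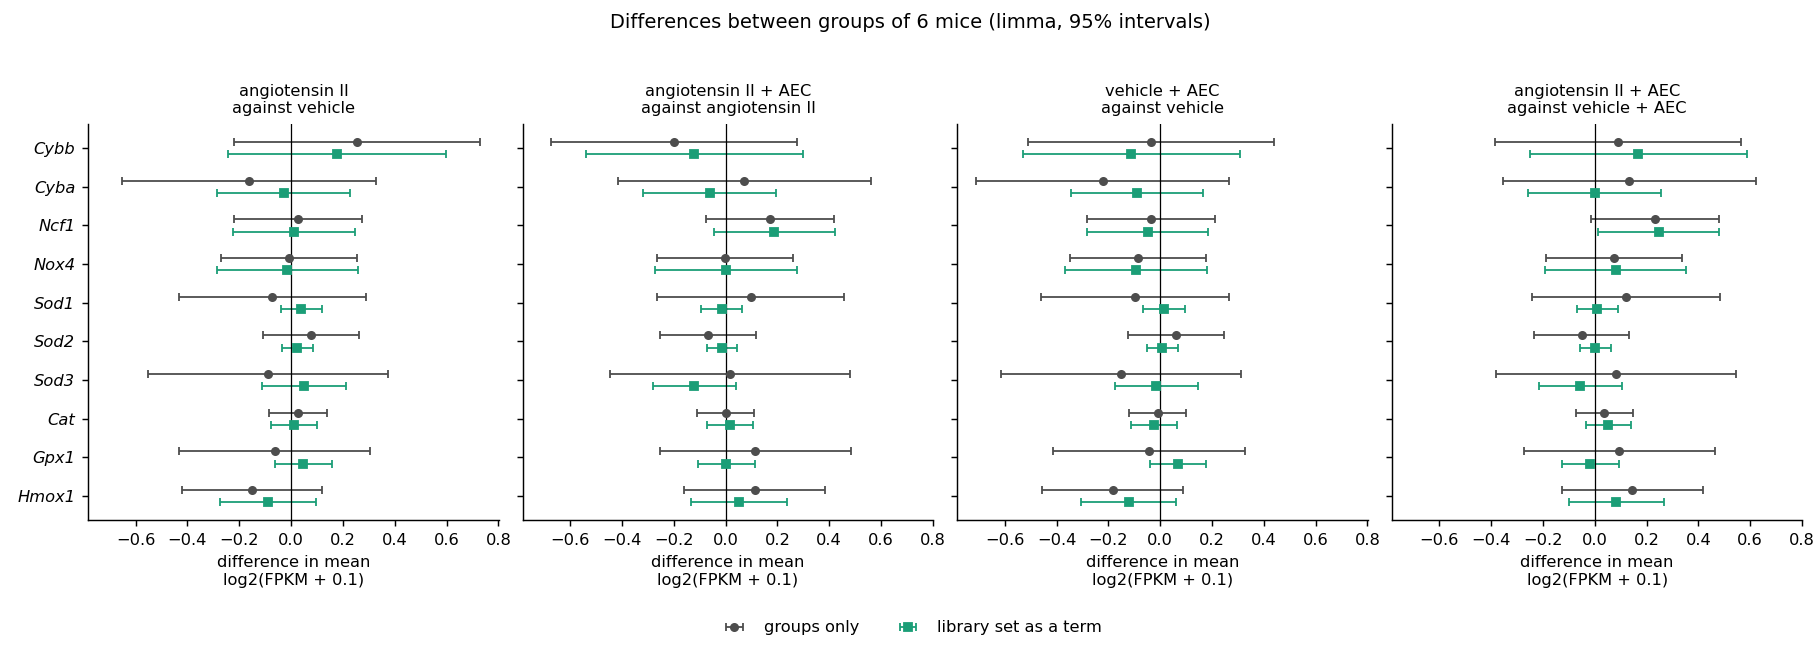
Differences between groups of 6 mice in mean log2(FPKM + 0.1), with 95% intervals, for the 10 genes in 4 comparisons, with the groups alone in the fit (circles) and with the library set as a term (squares). Intervals shrink most for Sod1, Gpx1, Sod2 and Sod3, and with the groups alone each of the 40 intervals spans 0.

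Much of the spread within groups came with the library set. With the set as a term, the standard error of a group difference was 4.52 times smaller for Sod1, 3.39 times for Gpx1, 3.12 times for Sod2 and 2.89 times for Sod3, against 1.06 times for Ncf1. The intervals of Sod1 in angiotensin II against vehicle then ran from 0.972-fold to 1.09-fold, and those of Sod2 from 0.976-fold to 1.06-fold. Gpx1 ran from 0.958-fold to 1.11-fold and Cat from 0.949-fold to 1.07-fold. These narrower intervals take the set as given, although it was found from the same expression values. In this fit, 1 of the 50 member values had an unadjusted p under 0.05, that of Ncf1 given above. The share of all genes with an unadjusted p under 0.05 was 3.46% in angiotensin II against vehicle, 3.9% for amnion epithelial cells in angiotensin II mice, 3.54% for these cells in vehicle mice, 4.01% for angiotensin II in mice given the cells and 3.41% in the interaction. Directions of several members turned with this term, since vehicle and angiotensin II + amnion epithelial cells hold 2 of the 6 libraries each and the other groups 1 each. Sod1, Sod3 and Gpx1 were lower with angiotensin II than with vehicle in the groups-only fit (-0.07, -0.09 and -0.06 on the log2 scale) and higher with the term (0.04, 0.05 and 0.05).

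The 6 libraries of high total FPKM differed from the other 18 in 8 of the 10 members. Since the sets were found from the same expression values, these differences and their p-values describe the split. Sod3 was 8.80 ± 0.810 FPKM (SD, n = 6) in the 6 libraries and 4.96 ± 0.453 FPKM (SD, n = 18) in the others, a ratio of 1.77. Cyba had a ratio of 1.75, Sod1 of 1.59, Gpx1 of 1.58 and Hmox1 of 1.31. These 5 were called higher in limma, as were 22.3% of all genes tested and 38.7% of those with a mean of at least 1 FPKM. The lower members were Sod2 with a ratio of 0.799, Cat with 0.943 and Cybb with 0.580, and 31% of all genes tested and 44% of those with a mean of at least 1 FPKM were called lower. The ranges of the sets did not overlap for Cyba, Sod1, Sod2, Sod3 and Gpx1. The share of all genes without overlap was not computed, so this count is not particular to the members. The difference had the same sign in all 4 groups for these 5 genes and for Hmox1 and Cybb. Ncf1 (log2 difference -0.09) and Nox4 (-0.04) were not called. Cat (adjusted p = 0.0327 in limma) lost its call when FPKM was rescaled by the median ratio to the other mice (log2 difference -0.02), and on leaving out any 1 of 6 mice (adjusted p 0.0513 to 0.133 in limma), which were vehicle replicates 2, 4, 5 and 6 and angiotensin II + amnion epithelial cells replicates 4 and 5. Cybb lost its call without vehicle replicate 6 or without vehicle + amnion epithelial cells replicate 6 (adjusted p 0.0656 to 0.0938 in limma).

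These differences went with the composition and length of the transcripts. Over 12063 protein-coding genes with a mean of at least 1 FPKM, the median log2 difference between the sets was -0.36 in the lowest of 4 equal bins of G + C share and 0.37 in the highest. By length, it was 0.44 in the bin of the shortest transcripts and -0.49 in that of the longest. Sod1, Cyba and Gpx1, with principal transcripts of 641, 744 and 1072 bases, and Hmox1, with 1569 bases, were in the shortest bin. Sod2 (5861 bases, 42.2% G + C) was in the longest bin and in the lowest for G + C, and Cybb (4752 bases, 42.4% G + C), too low to be among the binned genes, fell within the limits of the same bins. Sod3, with 3738 bases, had the highest difference of the members and lay in a length bin with a median of -0.22. Ncf1, with nearly the same G + C share as Sod3, had a log2 difference of -0.09.

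**Figure D4:**
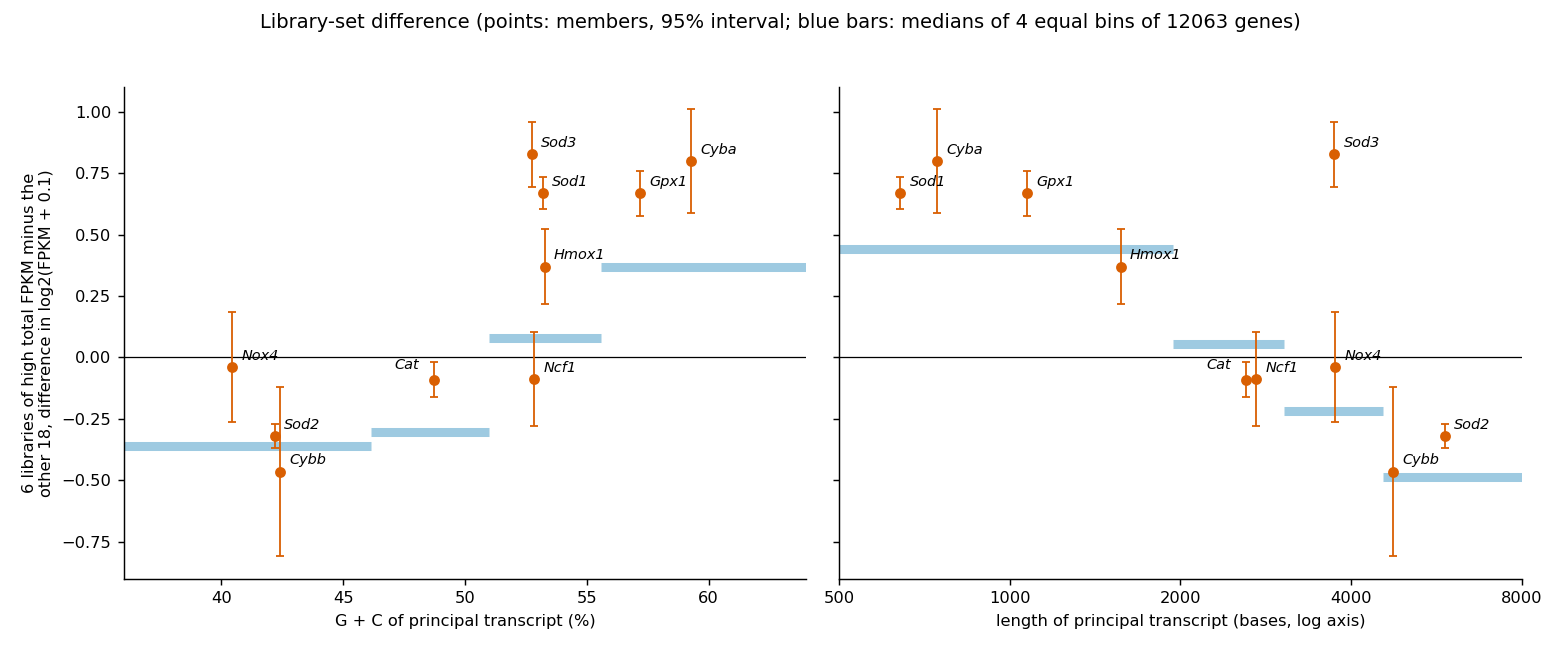
Difference between the 6 libraries of high total FPKM and the other 18 in log2(FPKM + 0.1), with 95% intervals, against the G + C share (left) and the length (right, log axis) of each gene's principal transcript. Blue bars give the medians of 4 equal bins of 12063 protein-coding genes, which rise from -0.36 to 0.37 with G + C and fall from 0.44 to -0.49 with length.

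Other measures also moved with the set. The share of fragments on mitochondrial genes was 6.17% to 6.85% in the set and 4.79% to 5.75% outside it. Of the 12 microglia markers, 8 were called higher and 3 lower, beside the shares of all genes given above. All 5 erythroid markers and 4 of 5 oligodendrocyte markers were called higher. So were 6 of 8 markers of meninges and 5 of 8 of smooth muscle and pericytes, with 0 lower in both. Neuron (3 higher and 3 lower of 6), astrocyte (2 and 3 of 5) and choroid plexus markers (4 and 4 of 8) were split. Endothelium (3 and 2 of 7) and border macrophage markers (2 and 2 of 7) were split as well. Of the 10 neutrophil markers, 0 were called. The part of these cell types in the values of the members was not tested. Vehicle + amnion epithelial cells replicate 5 had the highest total FPKM of the 18 libraries, and it also had their highest Gpx1 (64.4 FPKM) and Sod1 (50.8 FPKM).

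Within the 18 libraries, the members were set beside the cells that are known to carry them. As deviations from the group means, Cyba went with the mean of the 12 microglia markers (Pearson r = 0.476, permutation p = 0.0474, adjusted over 6 relations 0.174; Spearman rho = 0.445, permutation p = 0.0674). Without the 2 mice farthest from the median of the markers, r was 0.520. Hmox1 had r = 0.454 (permutation p = 0.0580, adjusted 0.174) and rho = 0.284 (permutation p = 0.252), and r fell to 0.338 without 2 mice. Ncf1 (r = 0.0830) and Cybb (r = -0.248) had adjusted permutation p-values of 0.760 and 0.642. For the erythroid markers, Cat had r = 0.189 and Gpx1 r = 0.0785, with adjusted permutation p-values of 0.681 and 0.760. None of the 6 relations passed the adjustment.

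The genes whose deviations over the same 18 libraries were most like a member's were looked for among 13648 genes with a mean of at least 1 FPKM. For Cyba these were Ldb2 (r = 0.918) and Gm10074 (r = 0.799). Sod1 was most like Stmn3 (r = 0.929) and Psmc5 (r = 0.924), and Gpx1 like P4htm (r = 0.938) and Gprin1 (r = 0.925). Sod2 was most like Mars2 (r = 0.872) and Smad5 (r = 0.865), and Sod3 like Fkbpl (r = 0.834) and Cnnm4 (r = 0.822). Cat was most like Gfap (r = 0.809), the filament protein of astrocytes, and A330074K22Rik (r = 0.787). Hmox1 was most like Stra6 (r = 0.838) and Tns2 (r = 0.832), and Ncf1 like Zmat5 (r = 0.777) and Tpgs2 (r = 0.771). These are the highest of many values over 18 libraries that share depth and composition, and are given as a description.

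The other genes of the same pathways were read from the same fits. Of 48 genes in 4 lists, 45 were tested, and 0 had an unadjusted p under 0.05 in any of the 5 comparisons. The lists were 13 other subunits and regulators of NADPH oxidases (10 tested), 10 genes of the glutathione system, 13 of the peroxiredoxin and thioredoxin system, and 12 of NRF2 regulation, haem and iron handling. In angiotensin II against vehicle, the list medians ran from -0.04 to 0.01 on the log2 scale, and the median of all genes tested was 0.02. For amnion epithelial cells in angiotensin II mice, they ran from -0.00 to 0.08, beside -0.02 for all genes. With the library set as a term, every comparison held some genes with an unadjusted p under 0.05, with 0 to 2 in a list. The share of all genes tested was 3.41% to 4.01% in that fit, and 0 genes of the lists were called.

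Their levels placed the members in the system. Of the oxidase partners, Rac1, the GTPase that many other pathways use, had a mean of 41.6 FPKM and Cybc1, the chaperone of the phagocyte oxidase, 5.35 FPKM. The phagocyte partners Ncf4 (0.463 FPKM) and Rac2 (0.811 FPKM) were below 1, and the dual oxidases Duox1 (0.0883 FPKM) and Duox2 (0.0152 FPKM) and the catalytic chain Nox1 (0.0335 FPKM) were far below it. Nox3, Noxa1 and Duoxa2 were above 0 in 5, 1 and 3 of the 24 mice and were not tested. On the antioxidant side, Gpx4, which repairs lipid peroxides, had a mean of 151 FPKM, and Prdx5 and Prdx2, which are peroxiredoxins, 117 and 74.8 FPKM. Hmox2, the constitutive haem oxygenase, had 30.2 FPKM. These values rest on the lengths in the table, as do those of the members.

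The library set ran through the pathway lists as well. Of the 13 peroxiredoxin and thioredoxin genes, 11 were called higher in the 6 libraries and 2 lower. Of genes with a mean of at least 1 FPKM, 38.7% and 44% were. The list median was 0.46 on the log2 scale, beside -0.04 for genes with a mean of at least 1 FPKM. It was 0.44 in the bin of the shortest transcripts given above, and the part of transcript length in the list was not tested. Txn1 (0.74), Prdx5 (0.73) and Txn2 (0.66) were among the higher genes, and Txnrd1 (-0.51), the reductase of thioredoxin, and Txnrd3 (-0.32) were the lower ones. Gpx4 (0.77) and Gclc (-0.77), the catalytic chain of glutathione synthesis, differed in opposite directions within the glutathione list, where 4 were called higher and 3 lower. Of the 12 genes of NRF2 regulation, haem and iron handling, 7 were called higher and 3 lower, Bach1, the repressor of Hmox1, being among the latter (-0.69). Among the oxidase subunits, Rac2 was called higher (0.73), and Rac1 (-0.37), Cybc1 (-0.35) and Nox1 (-0.34) were called lower.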

How the data were processed

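Brain RNA of 24 mice in 4 groups of 6 was analysed, with groups and replicate numbers taken from the sample labels. The authors deposited FPKM values with the gene length behind each. The submitters' processing notes name the build GRCm38 (mm10) and DESeq 1.10.1 as a tool of the authors. Libraries were made from poly-A RNA and reads were mapped to Ensembl's mouse genome. Which programs aligned and counted them, and whether by strand, is not given in the sources used here. FPKM multiplied by length gave whole fragments for 100% of values, within 0.1 of a fragment. These recovered fragments give the depths and were tested only as an alternative, and the limits they set cover counting error alone. No pair of mice within a group agreed within sampling noise (60 pairs, chi-square per gene 3.04 to 87.0), so each mouse counted once. Each sample was a mouse, whose litter, cage and day of preparation are not given, so p-values measure the spread between these samples.

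limma 3.58.1 in R 4.3.3 was fitted with the 4 groups as terms (eBayes with a trend), with a pseudocount of 0.1. Single genes were also tested by exact permutation of mice. The fit was tested on simulated data that held no difference between library sets, so that test does not cover the spread that came with the set. Principal transcripts came from GENCODE M21, in which 54409 of 54532 gene identifiers were found. Tables were made in pandas 2.3.3 (Python 3.11.15, numpy 2.4.6) and plots in matplotlib 3.10.9.

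The members and gene lists were chosen with earlier results of these data known. The 10 members were named in every comparison. From each list, up to 4 genes of lowest unadjusted p under 0.05 in a comparison could be named, and for each member with a mean of at least 1 FPKM the 2 genes most like it over the 18 libraries. Pathway genes named for their level or their library-set difference, and the sequence window, were chosen after their values were seen. Alternatives were a pseudocount of 1 or 0.01, other filters, fits of the compared groups alone, a replicate block, median-ratio scaling, voom on the recovered fragments, array weights, the library set as a term, the 18 libraries alone, and leaving out each mouse. Results of 1 gene of the pathway lists are not reported here.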

Additional observations from a re-analysis of the deposited data

Results flagged for a closer look

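Within each group, the highest or lowest mouse of a member was compared with the range of the 6 mice by Dixon's ratio at its 95% critical value for 6 samples. Of 40 groups tested, 8 held a mouse that stood apart, and 7 of these were among the 6 libraries with a high total FPKM. All 7 came from angiotensin II replicate 5 or vehicle + amnion epithelial cells replicate 6. The 40 tests read the members in the same mice and are not independent. Their count therefore cannot be set against the 1 in 20 that chance gives for a single test. Angiotensin II replicate 5 was the highest of its group for Sod1 (71.0 FPKM, the others 45.2 to 48.0), Sod3 (8.14 FPKM, the others 5.09 to 5.44) and Gpx1 (79.8 FPKM, the others 52.1 to 56.6), and the lowest for Sod2 (16.8 FPKM, the others 19.3 to 20.2). Vehicle + amnion epithelial cells replicate 6 was the highest of its group for Sod1 (73.7 FPKM, the others 42.4 to 50.8) and Sod3 (9.53 FPKM, the others 4.55 to 5.22), and the lowest for Sod2 (15.1 FPKM, the others 19.3 to 20.3). The ratio uses the gap to the nearest mouse, so in groups with 2 such libraries it could not flag mice that lay close together. In vehicle, for example, Sod1 was 76.9 and 70.7 FPKM in replicates 5 and 6, and 42.9 to 47.1 FPKM in the other 4.

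The remaining mouse was angiotensin II replicate 1, outside that set, whose Cybb of 0.330 FPKM stood above 0.127 to 0.202 FPKM in the other 5. It rested on 45 fragments, the most of any mouse for this gene.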

How the results depend on the processing

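Over 35 alternatives, 1730 member values were recomputed, with a lowest adjusted p of 0.620 in limma, and 0 members were called in any treatment comparison. An unadjusted p under 0.05 arose 6 times. Ncf1 gave 1 such member in angiotensin II + amnion epithelial cells against vehicle + amnion epithelial cells with the library set as a term, and the counts were 0 to 1 on leaving out a mouse. That value was reached without vehicle + amnion epithelial cells replicate 1 (log2 difference 0.28) or 4 (0.29), or without angiotensin II + amnion epithelial cells replicate 3 (0.29). Hmox1 gave the other 2, without vehicle replicate 1, in vehicle + amnion epithelial cells against vehicle (-0.27, counts 0 to 1) and in the interaction (0.38, counts 0 to 1). The cause was not tested. Signs changed in 56 of 530 values under the other alternatives and in 61 of 1200 on leaving out a mouse. In these, the difference in the first fit was at most 0.29 and 0.16 on the log2 scale.

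Counts of all genes with an unadjusted p under 0.05 moved more, from 93 to 136 over the comparisons with a mean FPKM of at least 1 to 1254 to 1331 with array weights, beside 604 to 725 in the main analysis. Replicate numbers were not taken to pair the mice. Correlations of same-numbered mice ran from -0.224 to 0.797, 28 of 36 were over 0.1, and 7 of 24 mice correlated best with their own number. All 6 pairs were over 0.1 in vehicle with angiotensin II + amnion epithelial cells (0.445 to 0.789), which are not compared directly, whereas each of the other 5 pairs of groups held at least 1 that was not. With the replicate number as a block, 0 members were called, and 950 to 1416 genes had an unadjusted p under 0.05. Of the 8 library-set calls, 6 to 8 remained on leaving out a mouse, Cat and Cybb being the calls lost. Depth limits Nox4 (at most 8 fragments) and Cybb (at most 45).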
